A study of Arabidopsis thaliana with 6 samples.

Results

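The genes described here are 33 genes of DNA replication and of the S-phase histones in Arabidopsis thaliana, taken by locus code from the 27978 rows of a table of RNA-seq read counts. They comprise 6 MCM helicase genes (MCM2 to MCM7), 2 genes of the sliding clamp (PCNA1 and PCNA2), 5 genes of origin licensing and initiation (CDC6, CDT1A, ORC1A, ORC2 and CDC45), 2 ribonucleotide reductase genes (RNR1 and TSO2), 8 histone H4 genes, 5 histone H3.1 genes and 5 histone H2A genes. All 33 were measured in all 6 libraries and passed the filter on low counts. The plants were wild type (WT, Col) in 3 groups of 2 libraries: a control with 0.1% ethanol, 1 nM indole-3-acetic acid (IAA, an auxin) and 10 nM melatonin (MT). Seedlings aged 4 days were moved from control plates onto plates holding either compound, in light for 16 h a day at 23 degrees. Sucrose was at 3% for all 6 libraries, and the titles place all of them at 7 days. The series title asks whether melatonin promotes root growth in a way that depends on IAA. Both compounds came from ethanol stocks, and their doses differed, so MT and IAA were not compared at a matched dose.

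Each round of the cell cycle copies the genome once, in S phase. The origin recognition complex (ORC), CDC6 and CDT1 load the ring of MCM proteins onto origins. CDC45 joins that ring to form the active helicase, PCNA holds the polymerases on the template, and ribonucleotide reductase makes the deoxynucleotides. New DNA is wrapped at once on newly made histones, so histone H4, H3.1 and H2A genes are transcribed mainly in S phase. H3.3 is the related H3 variant that is laid down outside S phase. In seedlings these genes are used mostly in the dividing cells of root and shoot meristems and of young leaves. In plants, E2F factors, which are held back by the retinoblastoma-related protein RBR1, bind the promoters of many replication genes, and histone promoters are known for an octamer and a hexamer motif.

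Promoter sequences are shown for genes whose windows held one of these motifs, because E2F words were found mostly in replication genes and the octamer in histone genes. Windows of 300 bases, from 250 before to 50 after the annotated gene start, were read from the RefSeq genome (assembly TAIR10.1) for 27443 protein-coding genes. The E2F motif was searched as TTTCCCGC, TTTCGCGC, TTTGCCGC or TTTGGCGC, the octamer as CGCGGATC and the hexamer as ACGTCA, each on both strands, and no motif overlapped another in the windows of the 33 genes. An E2F word was found in 10 of the 33 windows, against 1.76% of all windows. It was found in 5 of 6 MCM windows, in 2 of 5 licensing windows, in 1 of 2 ribonucleotide reductase windows and in 2 of 8 H4 windows. The 5 MCM stretches and the ORC1A and ORC2 stretches are printed 5′ to 3′ on the strand of the gene, with the E2F word, or its reverse complement, in capitals. They lie at chr1:16970154-16970213 (plus strand) for MCM2, chr5:18773842-18773901 (minus) for MCM3, chr2:7130730-7130789 (minus) for MCM4, chr2:3527501-3527560 (minus) for MCM5, chr5:18010668-18010727 (minus) for MCM6, chr4:8422113-8422172 (plus) for ORC1A and chr2:15758541-15758600 (plus) for ORC2. All of them lie before the annotated start of the gene.
MCM2: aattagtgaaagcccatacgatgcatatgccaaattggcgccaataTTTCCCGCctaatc
MCM3: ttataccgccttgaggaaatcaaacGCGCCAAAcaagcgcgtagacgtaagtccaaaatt
MCM4: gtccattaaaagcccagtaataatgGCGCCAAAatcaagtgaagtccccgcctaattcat
MCM5: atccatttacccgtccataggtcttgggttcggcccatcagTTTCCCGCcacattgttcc
MCM6: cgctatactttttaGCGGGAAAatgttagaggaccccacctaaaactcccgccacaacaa
ORC1A: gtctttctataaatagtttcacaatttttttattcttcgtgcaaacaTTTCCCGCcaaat
ORC2: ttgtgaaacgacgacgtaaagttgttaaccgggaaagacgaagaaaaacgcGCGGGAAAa

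The octamer was found in 7 of the 33 windows, all of them histone genes, against 0.146% of all windows. It was found in 2 of 8 H4 windows, 3 of 5 H3.1 windows and 2 of 5 H2A windows, and no window of the set held both an E2F word and the octamer. The hexamer was found in 4 of the 33 windows, against 9.19% of all windows. The stretches below carry the octamer, or its reverse complement, in capitals, and AT1G09200 and HTA10 each carry it 2 times. They lie at chr5:24051374-24051433 (plus) for the H4 gene AT5G59690, chr1:2972335-2972434 (minus), chr5:3271048-3271107 (minus) and chr5:26120672-26120731 (minus) for the H3.1 genes AT1G09200, AT5G10400 and AT5G65360, and chr3:7229290-7229349 (plus) and chr1:18926711-18926810 (plus) for the H2A genes HTA13 and HTA10. A match is a description of the letters and not a measured binding site, and a window without a match holds only other letters.
AT5G59690: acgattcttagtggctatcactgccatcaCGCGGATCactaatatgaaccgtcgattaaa
AT1G09200: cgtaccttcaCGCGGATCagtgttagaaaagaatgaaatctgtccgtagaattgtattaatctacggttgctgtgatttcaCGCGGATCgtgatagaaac
AT5G10400: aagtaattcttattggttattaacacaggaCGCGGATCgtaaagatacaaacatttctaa
AT5G65360: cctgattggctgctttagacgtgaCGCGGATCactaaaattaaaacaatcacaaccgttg
HTA13: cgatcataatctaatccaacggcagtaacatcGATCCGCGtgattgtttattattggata
HTA10: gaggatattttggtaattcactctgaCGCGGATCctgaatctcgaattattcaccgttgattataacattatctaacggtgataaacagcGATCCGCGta

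**Figure D1:**
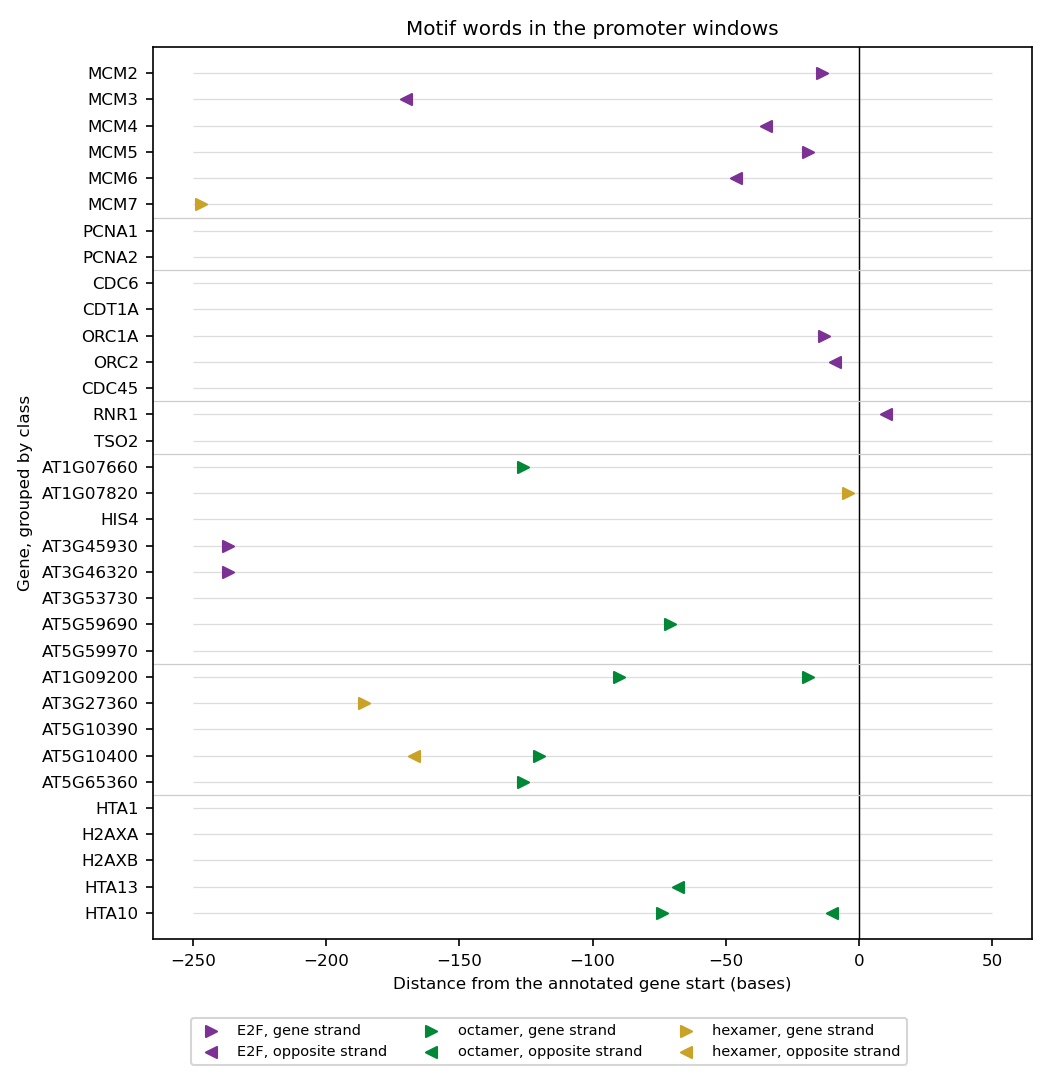
Position of each motif word in the promoter windows of the 33 genes, as distance in bases from the annotated gene start, with triangles pointing right for the strand of the gene and left for the opposite strand. E2F words (purple) sit in 10 windows, mostly of MCM and licensing genes, and octamers (green) sit in 7 windows, all of histone genes.

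The depth of the libraries ran from 40087221 to 65558371 counts, and the 33 genes took 0.0726% to 0.097% of them. A level is given as CPM, which scales the counts to the library size, and 3 counts, the floor used for counting error, were worth 0.0463 to 0.0748 CPM. In the count table both control columns carry 72 h in their names while the sample titles say 7 days, so the age of the control plants is uncertain in every comparison with control. The sample labels give seedlings as the tissue and the series' design text gives rosette leaves. The 6 leaf markers summed to between 37533 and 40839 CPM and the 8 root markers, all detected in every library, to between 12.5 and 49.8 CPM. MT replicate 1 had 0.285% of its counts on plastid genes, against 0.0196% to 0.0244% in the other 5 libraries. Whether the replicates came from separate cultures is not stated in the labels, so the p-values cover only the spread among these libraries and that spread may be technical.

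With IAA the 33 genes had higher fitted levels than in control as a group, and no single gene passed the test. The set as a whole was not tested. All 33 log2 fold changes were positive, with a median of 0.30 and a range of 0.04 to 0.71, against a median of 0.01 and 53.6% positive over the 21267 genes tested. In the quasi-likelihood test of edgeR, adjusted by the Benjamini-Hochberg method over all genes, 0 of 33 had an adjusted p under 0.05, and the lowest adjusted p was 0.105. Of all genes 0.701% passed, 0.583% higher and 0.118% lower. At an unadjusted p under 0.05, 16 of the 33 were higher and 0 lower, against 6.71% and 4.27% of all genes. DESeq2 called 2 of the 33 higher, both of them H4 genes, and 0 lower, against 2.23% of all genes, 1.54% higher and 0.696% lower. Both IAA libraries lay above both control libraries for 25 of the 33 genes and below for 0, against 23.6% and 20.2% of all genes. The libraries are bulk tissue, so more cells that express these genes and more of their RNA per cell cannot be told apart.

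The difference was carried unequally by the pair of IAA libraries. IAA replicate 2 was the highest of the 6 libraries for 27 of the 33 genes, IAA replicate 1 for 5 and control replicate 1 for 1. The median deviation of the 33 genes from their mean over the 6 libraries was 0.31 on the log2 scale in IAA replicate 2 and 0.10 in IAA replicate 1. The control libraries were at -0.04 and -0.08, and the MT libraries at -0.14 and -0.10. Without IAA replicate 2 the median fold change was 0.18, 31 of 33 values were positive, and 3 genes had an unadjusted p under 0.05. The lone IAA library left was then taken to vary like the other groups, and it still lay above both control libraries for 25 of 33 genes, against 37.3% of all genes. Without control replicate 2 the median was 0.24 and 4 genes had an unadjusted p under 0.05.

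**Figure D2:**
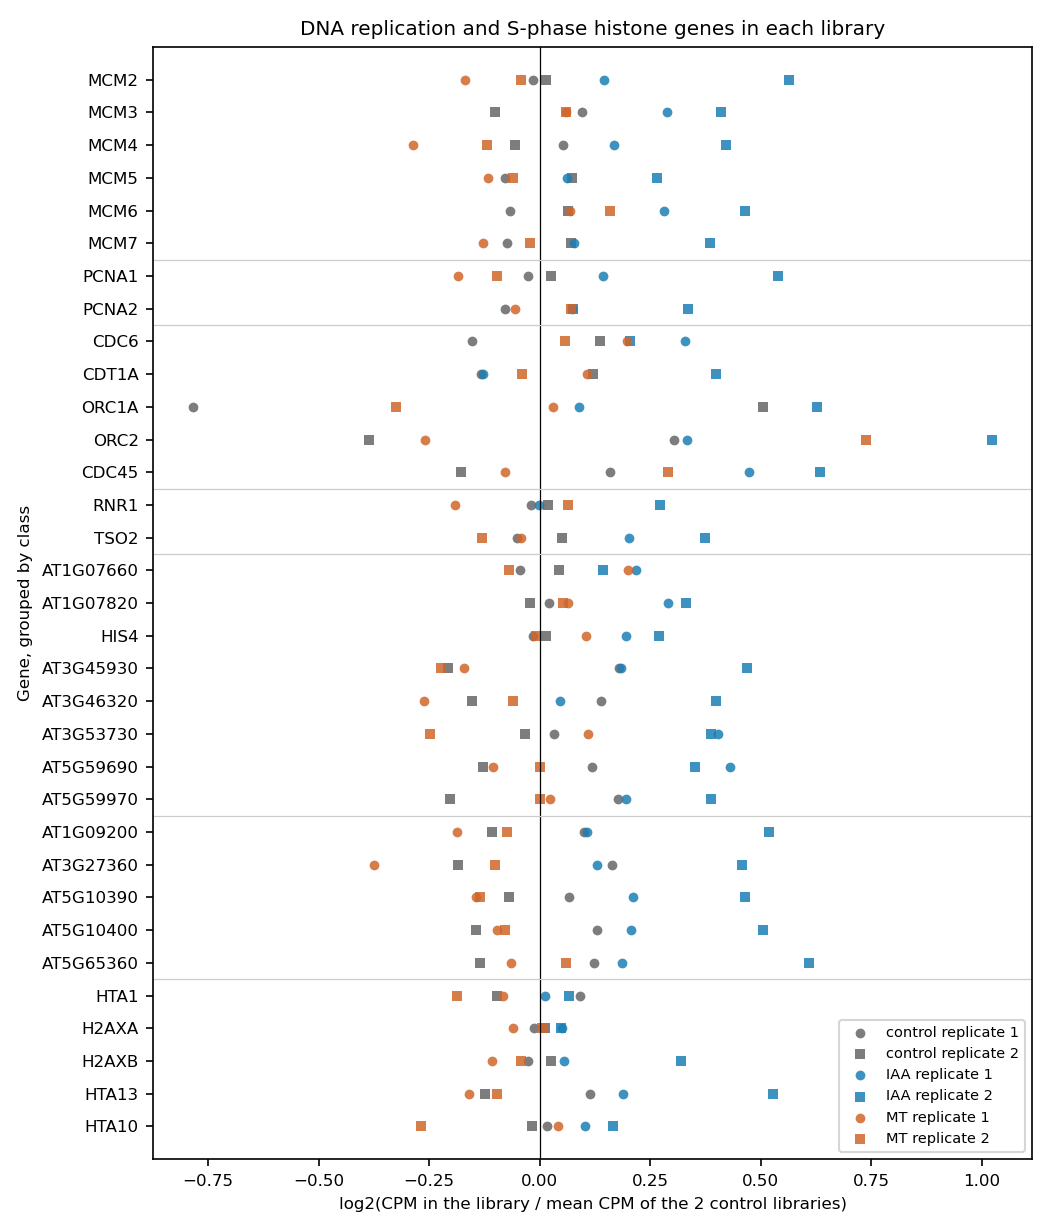
Level of each of the 33 genes in each library, as the log2 ratio of its CPM to the mean CPM of the 2 control libraries, with circles for replicate 1 and squares for replicate 2. The blue IAA points lie mostly to the right of the grey control points, with IAA replicate 2 the highest library for 27 genes, and the orange MT points lie around or to the left of the control points.

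The MCM genes code for the 6 subunits of the replicative helicase ring, and their levels lay close together. Per kb of coding sequence and averaged over the 6 libraries, the level ran from 4.54 CPM for MCM6 to 10.5 CPM for MCM7. The 6 genes summed to 98.4 and 100.1 CPM in control, 111.0 and 132.4 CPM with IAA, and 92.5 and 98.4 CPM with MT. Both IAA sums were above the other 4. The fold change of IAA over control was positive for 6 of 6, with a median of 0.32, and 4 of 6 had an unadjusted p under 0.05 by edgeR while 0 passed adjustment by edgeR or DESeq2.

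MCM6 was at 9.89 and 10.8 CPM in control, 12.6 and 14.3 CPM with IAA, and 10.9 and 11.6 CPM with MT. The IAA libraries were the highest, and the MT libraries also lay above control. Its log2 fold change with IAA was 0.38 ± 0.12 (SE; edgeR adjusted p = 0.28), the highest of the MCM genes. MCM7 was at 20.6 and 22.7 CPM in control, 22.9 and 28.3 CPM with IAA, and 19.8 and 21.3 CPM with MT, and IAA replicate 1 was barely above control replicate 2. MCM5 had the lowest value of the class with IAA, 0.17 ± 0.11 (SE; edgeR adjusted p = 0.644). Its levels were 16.5 and 18.3 CPM in control, 18.1 and 20.9 CPM with IAA and 16.0 and 16.7 CPM with MT, so the control and IAA groups overlapped. MCM4 was at 17.5 and 16.2 CPM in control, 18.9 and 22.6 CPM with IAA and 13.8 and 15.5 CPM with MT. The 3 groups of MCM4 did not overlap, with MT lowest and IAA highest. MCM2 had the same order, at 15.8 and 16.2 CPM in control, 17.7 and 23.7 CPM with IAA and 14.2 and 15.5 CPM with MT. MCM3, at 15.9 to 18.2 CPM in control and 20.8 to 22.7 CPM with IAA, had a log2 fold change of 0.35 ± 0.10 (SE; edgeR adjusted p = 0.252).

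The sliding clamp PCNA has 2 genes in Arabidopsis, which were 85.3% identical in coding sequence and 96.6% identical in protein. PCNA1 was at 8.89 and 9.23 CPM in control, 10.0 and 13.2 CPM with IAA, and 7.97 and 8.48 CPM with MT. Its groups did not overlap, again with MT lowest and IAA highest, and its log2 fold change with IAA was 0.35 ± 0.15 (SE; edgeR adjusted p = 0.438). PCNA2 was at 13.9 and 15.5 CPM in control, 15.5 and 18.6 CPM with IAA, and 14.2 and 15.5 CPM with MT, with control and IAA touching. Its log2 fold change with IAA was 0.21 ± 0.12 (SE; edgeR adjusted p = 0.598).

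The licensing and initiation genes had the widest errors of the set, and 4 of the 5 were less abundant per kb than any other gene of it. Per kb of coding sequence they averaged from 0.262 CPM for ORC1A, a subunit of the origin recognition complex, to 5.09 CPM for CDT1A, which helps to load the MCM ring. All 5 fold changes with IAA were positive (median 0.38), and 1 of 5 had an unadjusted p under 0.05 by edgeR while 0 passed adjustment by edgeR or DESeq2. CDC45, the partner of the MCM ring in the active helicase, was at 3.62 and 2.87 CPM in control, 4.5 and 5.04 CPM with IAA, and 3.07 and 3.97 CPM with MT. The IAA libraries were the 2 highest, and the log2 fold change was 0.55 ± 0.22 (SE; edgeR adjusted p = 0.403). ORC2 had the largest value of the 33 genes, 0.71 ± 0.44 (SE; edgeR adjusted p = 0.625), with a 95% interval of -0.29 to 1.71. It was at 1.49 and 0.927 CPM in control, 1.53 and 2.46 CPM with IAA, and 1.01 and 2.02 CPM with MT, so the replicates of each group lay far apart. ORC1A was at 0.345 and 0.843 CPM in control, 0.632 and 0.918 CPM with IAA, and 0.607 and 0.474 CPM with MT. Its control libraries alone spanned most of that range. The annotation places a gene of the opposite strand over 825 bases of ORC1A, and the use of strand in counting is not given in the sources used here. Opposite-strand genes also overlap PCNA2 by 279 bases, H2AXB by up to 259, CDC6 by 123 and HTA13 by 79, and MCM7 is overlapped by up to 437. AT3G27360 and TSO2 are overlapped on the same strand, by 328 and 3 bases. CDT1A was at 7.61 and 9.06 CPM in control, 7.63 and 10.99 CPM with IAA, and 8.98 and 8.1 CPM with MT, with overlapping groups. CDC6, the loader that works with CDT1A, was at 3.6 and 4.4 CPM in control and 5.03 and 4.61 CPM with IAA, a log2 fold change of 0.27 ± 0.19 (SE; edgeR adjusted p = 0.673).

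Ribonucleotide reductase is built of large subunits, coded by RNR1, and small subunits, of which TSO2 is one. TSO2 was at 40.4 and 43.3 CPM in control, 48.2 and 54.3 CPM with IAA, and 40.7 and 38.2 CPM with MT. Both IAA libraries lay above the other 4, and the log2 fold change with IAA was 0.29 ± 0.08 (SE; edgeR adjusted p = 0.243). RNR1 was at 63.4 and 65.2 CPM in control, 64.2 and 77.6 CPM with IAA, and 56.3 and 67.3 CPM with MT. Its groups overlapped, and its log2 fold change with IAA was 0.14 ± 0.11 (SE; edgeR adjusted p = 0.703).

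The 8 histone H4 genes code for 1 identical protein of 103 residues from 8 different coding sequences of 312 bases. Their coding sequences were 78.9% to 98.1% identical in pairs. The pair AT1G07660 and AT1G07820 was 98.1% identical, and AT5G59690 and AT5G59970 were 97.1% identical, each pair with a shared run of 95 bases. AT3G45930 and AT3G46320 shared a run of 147 bases. Reads of such pairs may have been split or lost in counting, so single values are uncertain, that of AT5G59690 among them. A sum over the 8 genes does not depend on how reads were split among them, but it does not bring back lost reads. The sum was 219.6 and 196.7 CPM in control, 255.5 and 265.0 CPM with IAA, and 208.9 and 201.7 CPM with MT. The IAA libraries were the 2 highest and differed little from each other. The mean was 208 ± 16.2 CPM in control, 260.2 ± 6.72 CPM with IAA and 205 ± 5.09 CPM with MT (SD, n = 2).

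AT5G59690, on chromosome 5 at 24051474 to 24052218, was the most abundant H4 gene. It averaged 179 CPM per kb of coding sequence and held 22.8% to 27.0% of the H4 counts in each library. It was at 55.5 and 46.8 CPM in control, 68.9 and 65.3 CPM with IAA, and 47.6 and 51.2 CPM with MT. Both IAA libraries lay above the rest, with a log2 fold change of 0.39 ± 0.09 (SE; edgeR adjusted p = 0.131). DESeq2 called this gene, at 0.39 ± 0.11 (SE; adjusted p = 0.0211). AT1G07820, singled out after the values were seen because its p was the lowest of the set, was at 41.1 and 40.0 CPM in control, 49.6 and 51.1 CPM with IAA, and 42.4 and 42.1 CPM with MT. Its replicates lay close together in each group, and the log2 fold change with IAA was 0.31 ± 0.07 (SE; edgeR adjusted p = 0.105; DESeq2 adjusted p = 0.0226). AT3G53730 had the largest H4 value with IAA, 0.40 ± 0.11 (SE; edgeR adjusted p = 0.243), with 29.2 and 27.96 CPM in control and 37.8 and 37.4 CPM with IAA. AT1G07660 had the smallest, 0.18 ± 0.12 (SE; edgeR adjusted p = 0.64), with 13.5 and 14.3 CPM in control, 16.2 and 15.4 CPM with IAA, and 16.0 and 13.2 CPM with MT. AT3G46320 was the least abundant per kb, at 42.8 CPM, with 14.4 and 11.7 CPM in control, 13.5 and 17.2 CPM with IAA, and 10.9 and 12.5 CPM with MT, where control and IAA overlapped. AT3G45930 was at 16.9 and 12.9 CPM in control, 16.9 and 20.6 CPM with IAA, and 13.2 and 12.7 CPM with MT. The remaining H4 genes, HIS4 and AT5G59970, had values with IAA of 0.23 and 0.29. Over the class the fold change with IAA was positive for 8 of 8, with a median of 0.30, against 53.6% of all genes positive. By edgeR 4 of 8 were higher at an unadjusted p under 0.05, against 6.71% of all genes, and 0 of 8 passed adjustment.

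The 5 histone H3.1 genes also code for 1 protein, of 136 residues, with coding sequences 80.3% to 89.5% identical and no shared run longer than 59 bases. Their shares of the H3.1 counts moved little between libraries. AT5G65360, on chromosome 5 at 26119859 to 26120581, held 37.4% to 39.9% and AT5G10390 held 5.46% to 6.13%. The 5 genes summed to 157.4 and 132.3 CPM in control, 162.8 and 210.8 CPM with IAA, and 132.2 and 142.0 CPM with MT. IAA replicate 1 was close above control replicate 1, and IAA replicate 2 stood well above all others. AT5G65360 was at 59.2 and 49.5 CPM in control, 61.9 and 82.9 CPM with IAA, and 52.0 and 56.7 CPM with MT, a log2 fold change with IAA of 0.41 ± 0.14 (SE; edgeR adjusted p = 0.313). AT5G10390 was at 8.91 and 8.11 CPM in control, 9.85 and 11.8 CPM with IAA, and 7.71 and 7.76 CPM with MT. Its 3 groups did not overlap, with MT lowest. AT5G10400, its neighbour on chromosome 5, was at 36.1 and 29.8 CPM in control and 38.1 and 46.8 CPM with IAA. AT3G27360 was at 14.8 and 11.6 CPM in control, 14.4 and 18.1 CPM with IAA, and 10.2 and 12.3 CPM with MT, with control and IAA overlapping. Another gene of the same strand overlaps 328 bases of AT3G27360, so its values are uncertain in every comparison. The fold change with IAA was positive for 5 of 5 H3.1 genes, with a median of 0.34, and 4 of 5 had an unadjusted p under 0.05 by edgeR while 0 passed adjustment by edgeR or DESeq2.

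The 3 genes of the variant H3.3, which is not tied to S phase, were more abundant and nearly level across the libraries. They summed to 545.0 and 529.0 CPM in control, 538.4 and 547.9 CPM with IAA, and 564.6 and 510.1 CPM with MT. The protein of the H3.3 gene AT5G10980 was 97.1% identical to that of the H3.1 gene AT5G65360. The H3.3 fold changes ran from -0.02 to 0.05 with IAA and from -0.03 to 0.02 with MT, and 0 of 3 passed by edgeR, at an unadjusted p under 0.05 or by DESeq2. The difference between the H3.1 and H3.3 changes was not tested.

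The 5 H2A genes of the set code for 5 different proteins of 130 to 142 residues and had the lowest class median with IAA, at 0.13. H2AXA and H2AXB code for H2A.X, the variant that is phosphorylated at DNA breaks. H2AXA was at 52.5 and 53.4 CPM in control, 54.8 and 54.8 CPM with IAA, and 50.8 and 53.1 CPM with MT. The log2 fold change with IAA was 0.05 ± 0.06 (SE; edgeR adjusted p = 0.842), with a 95% interval of -0.10 to 0.20. H2AXB was at 18.2 and 18.8 CPM in control, 19.2 and 23.1 CPM with IAA, and 17.2 and 18.0 CPM with MT, with IAA replicate 2 apart from the rest. Of the other H2A genes, HTA13 had the largest value, 0.37 ± 0.13 (SE; edgeR adjusted p = 0.362). It was at 18.6 and 15.8 CPM in control, 19.6 and 24.8 CPM with IAA, and 15.4 and 16.1 CPM with MT. HTA1 had the smallest value of all 33 genes, 0.04 ± 0.11 (SE; edgeR adjusted p = 0.936), with 17.3 and 15.2 CPM in control, 16.4 and 17.1 CPM with IAA, and 15.4 and 14.3 CPM with MT. HTA10 was at 44.4 and 43.4 CPM in control, 47.2 and 49.3 CPM with IAA, and 45.2 and 36.5 CPM with MT, where the MT libraries lay farther apart than the other groups did. By edgeR, 1 of 5 H2A genes had an unadjusted p under 0.05 with IAA, and 0 passed adjustment by edgeR or DESeq2.

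With MT the 33 genes lay close to control, on both sides of it. Their log2 fold changes had a median of -0.07 and ran from -0.23 for AT3G27360 to 0.31 for ORC2, with 11 positive and 22 negative, against a median of -0.003 and 49.3% positive over all genes. By edgeR 0 of 33 passed, against 1.89% of all genes, 1.67% higher and 0.226% lower, and DESeq2 called 0, against 3.87%, 3.12% higher and 0.748% lower. At an unadjusted p under 0.05, 0 of 33 were higher or lower, against 8.67% and 4.58% of all genes. The lowest adjusted p was 0.529, for MCM4, with a log2 fold change of -0.20 ± 0.12 (SE) and a 95% interval of -0.48 to 0.07. Both MT libraries lay above both control libraries for 2 genes, MCM6 and AT1G07820, and below for 5, MCM2, MCM4, PCNA1, AT5G10390 and H2AXB, which are named here after their values were seen. All genes gave 22.5% and 22.2% for the same counts, so with all 6 libraries both were under the background share. The count below control was near or above the matching share of all genes without control replicate 2 (16 of 33, against 36.4%), control replicate 1 (12, against 33.9%), MT replicate 1 (11, against 35.8%) or MT replicate 2 (13, against 39%). The class medians were -0.08 for MCM, -0.07 for PCNA, 0.11 for licensing, -0.07 for ribonucleotide reductase, -0.02 for H4, -0.13 for H3.1 and -0.10 for H2A. For AT5G65360 the fold change was -0.00 ± 0.14 (SE; edgeR adjusted p = 0.997), with a 95% interval of -0.32 to 0.31.

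Between the treatments, the 33 genes were at lower fitted levels with MT than with IAA as a group, and again no gene passed the test. All 33 log2 fold changes of MT over IAA were negative, with a median of -0.38 and a range of -0.53 to -0.08, against a median of -0.01 over all genes, of which 48.4% were positive. By edgeR 0 of 33 had an adjusted p under 0.05, against 0.0188% of all genes, 0.0047% higher and 0.0141% lower, and the lowest adjusted p was 0.208. At an unadjusted p under 0.05, 20 of the 33 were lower and 0 higher, against 4.53% and 5.98% of all genes. DESeq2 called 2 of the 33 lower, AT5G59690 at -0.44 (adjusted p = 0.0109) and TSO2 at -0.37 (adjusted p = 0.034), and 0 higher. Of the 19617 genes given an adjusted p by DESeq2 1.3% were called, 0.943% higher and 0.357% lower. Both MT libraries lay below both IAA libraries for 29 genes and above for 0, against 20.4% and 19.8% of all genes. The same IAA libraries enter this comparison and that of IAA with control, so they share the high values of IAA replicate 2. Without that library the median was -0.21, 6 genes had an unadjusted p under 0.05, and 30 of 33 still lay below the remaining IAA library, against 34.4% of all genes. Leaving out MT replicate 1, whose plastid share was high, gave a median of -0.29, and 10 genes had an unadjusted p under 0.05.

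The class medians of MT over IAA were -0.30 for MCM, -0.35 for PCNA, -0.40 for licensing, -0.29 for ribonucleotide reductase, -0.34 for H4, -0.46 for H3.1 and -0.24 for H2A. MCM4 had the lowest value of the helicase genes, -0.50 ± 0.12 (SE; edgeR adjusted p = 0.247). Among the H4 genes AT3G45930 was lowest, at -0.53 ± 0.15 (SE; edgeR adjusted p = 0.314), and AT1G07660 was nearest to 0, at -0.11 ± 0.12 (SE; edgeR adjusted p = 0.792). The H3.1 genes ran from -0.53 for AT3G27360 to -0.41 for AT5G65360, and all 5 had an unadjusted p under 0.05. H2AXA was the gene of the set nearest to 0, at -0.08 ± 0.06 (SE; edgeR adjusted p = 0.713).

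**Figure D3:**
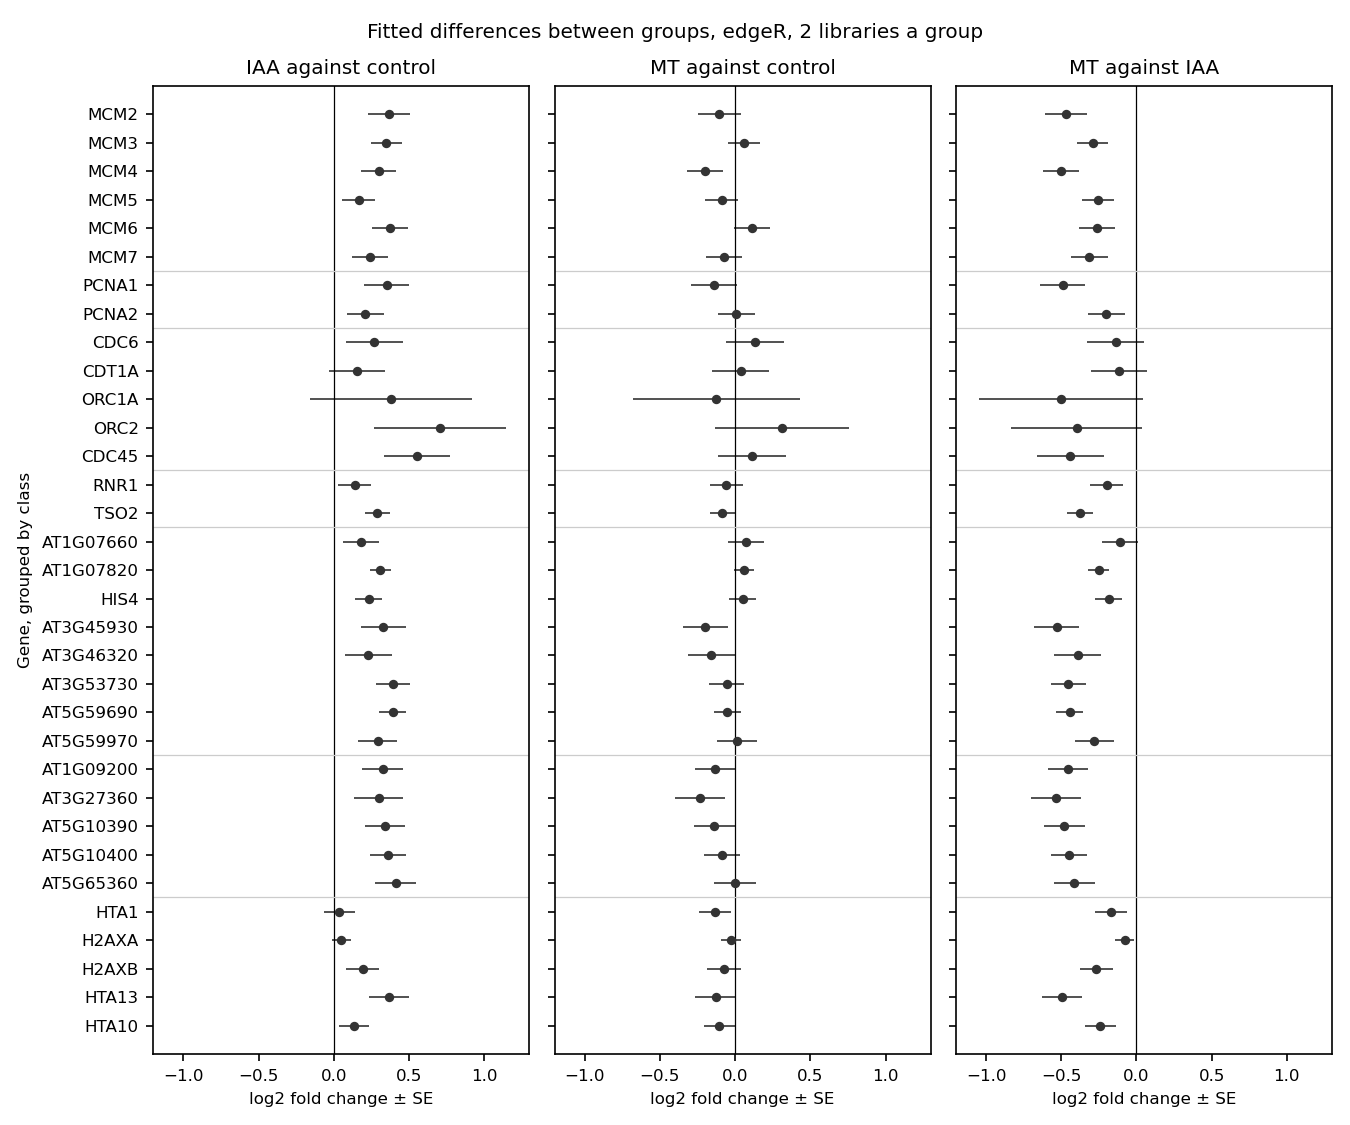
Fitted log2 fold changes of the 33 genes with bars of 1 SE, from edgeR with 2 libraries a group, for IAA against control, MT against control and MT against IAA. All 33 points lie to the right of 0 in the first panel and to the left of 0 in the third, 22 of 33 lie left of 0 in the second, and the widest bars belong to ORC1A and ORC2.

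Other genes of the replication fork were taken from 4 lists of 45 genes in all: further licensing factors, the rest of the helicase with the polymerases, the clamp loader with RPA and Okazaki fragment enzymes, and nucleotide supply. With IAA, 36 of the 45 fold changes were positive, against 53.6% of all genes, with a median of 0.13. By edgeR 0 passed, against 0.701% of all genes, and DESeq2 called 0, against 2.23%. At an unadjusted p under 0.05, 4 were higher and 1 lower, against 6.71% and 4.27% of all genes, so these counts were near the background. The 9 further licensing genes were all positive with IAA, with a median of 0.37. CDT1B, the second CDT1 gene, was at 2.84 and 3.06 CPM in control, 4.1 and 5.68 CPM with IAA, and 3.2 and 2.42 CPM with MT. The IAA libraries were the 2 highest, and MT differed from IAA by -0.79 ± 0.24 (log2, SE; edgeR adjusted p = 0.342). RPA1D, a large subunit of the single-strand binding protein RPA, was at 9.83 and 10.0 CPM in control and 12.9 and 16.3 CPM with IAA, a log2 fold change of 0.55 ± 0.14 (SE; edgeR adjusted p = 0.157). EMB2813, a subunit of DNA primase, was at 0.39 ± 0.13 (log2, SE; edgeR adjusted p = 0.323) with IAA. RNR2A, another small subunit of ribonucleotide reductase, was at 54.4 and 49.4 CPM in control, 44.0 and 44.4 CPM with IAA, and 41.5 and 45.9 CPM with MT. All 4 treated libraries lay below control, the opposite side from TSO2 with IAA, with values of -0.23 ± 0.08 for IAA (SE; edgeR adjusted p = 0.337) and -0.25 ± 0.08 for MT (SE; edgeR adjusted p = 0.227). With MT, 16 of the 45 were positive over control, against 49.3% of all genes, with a median of -0.07. For MT over IAA 39 of the 45 were negative, with a median of -0.18, where 48.4% of all genes were positive. In those 2 comparisons 0 of 45 passed by edgeR, against 1.89% and 0.0188% of all genes, or by DESeq2, against 3.87% and 1.3%. At an unadjusted p under 0.05, 1 and 7 genes were lower, against 4.58% and 4.53% of all genes.

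Of the other histones, 10 H2B genes could be tested, and the fold change with IAA was positive for 8 of 10 (median 0.21), against 53.6% of all genes. HTB1 had the lowest p of these, for MT against IAA, with 33.4 and 32.9 CPM in control, 32.996 and 39.2 CPM with IAA and 27.2 and 27.8 CPM with MT. Its log2 fold change of MT over IAA was -0.39 ± 0.10 (SE; edgeR adjusted p = 0.266). Further H2A genes, 4 in number, had a median of 0.04 with IAA, and HTA6 was at 0.35 ± 0.13 (SE; edgeR adjusted p = 0.349). The 3 genes of H2A.Z, a variant found at gene starts, had a median of 0.33 with IAA. HTA9, the most abundant of them, was at -0.03 ± 0.12 with IAA (SE; edgeR adjusted p = 0.957). The H2A.Z sums overlapped, at 93.6 and 85.2 CPM in control and 96.3 and 92.0 CPM with IAA. HTA11 was at -0.37 ± 0.14 for MT over IAA (SE; edgeR adjusted p = 0.404). Of the 3 linker histone H1 genes, 2 fold changes were positive and 1 negative with IAA. The H1 gene AT1G06760 was at 0.35 ± 0.11 with IAA (SE; edgeR adjusted p = 0.296). HIS1-3 was at -0.27 ± 0.13 with IAA (SE; edgeR adjusted p = 0.487), and its IAA and MT libraries all lay below control. The chaperone CAF-1, which places H3.1 and H4 on new DNA, was represented by FAS1 at 0.27 ± 0.15 with IAA (SE; edgeR adjusted p = 0.58). E2FA, one of the E2F factors, was at -0.39 ± 0.14 for MT over IAA (SE; edgeR adjusted p = 0.387), and the 6 genes of E2F, DP and RBR1 had a median of 0.06 with IAA. In all 3 comparisons 0 genes of these lists passed by edgeR or DESeq2, and with IAA an unadjusted p under 0.05 was seen for 3 H2B genes, 1 further H2A gene, 2 H2A.Z genes, 2 H1 genes, 0 CAF-1 genes and 1 of the E2F list. These were all higher with IAA, as were 6.71% of all genes at that level. For MT against control 1 H2B gene and 1 H1 gene were lower at that level, against 4.58% of all genes. For MT against IAA 4 H2B genes, 1 H2A.Z gene, 1 H1 gene and 1 of the E2F list were lower, and 1 H2B gene was higher. Of all genes 4.53% were lower and 5.98% higher in that comparison.

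Genes of mitosis, which follow replication in dividing cells, also had fitted values above control with IAA. All 10 fold changes with IAA were positive (median 0.54), against 53.6% of all genes. By edgeR 0 passed and 7 were higher at an unadjusted p under 0.05, against 6.71% of all genes. DESeq2 called 1 higher, against 1.54% of all genes. CDC20.1, which switches on the ubiquitin ligase that starts anaphase, was at 15.4 and 16.5 CPM in control, 23.1 and 25.9 CPM with IAA, and 18.5 and 15.6 CPM with MT. The log2 fold change with IAA was 0.62 ± 0.12 (SE; edgeR adjusted p = 0.061). The 10 genes summed to 74.6 and 77.1 CPM in control, 97.2 and 125.6 CPM with IAA, and 78.0 and 76.4 CPM with MT, again with IAA replicate 2 highest. For MT over IAA, 9 of 10 were negative and 0 passed by edgeR. At an unadjusted p under 0.05, 7 were lower, against 4.53% of all genes, and DESeq2 called 2 lower, against 0.357%. With MT against control 0 of 10 passed by edgeR, at an unadjusted p under 0.05 or by DESeq2. Of the 5 endocycle genes, 4 fold changes were positive and 1 negative with IAA (median 0.20), against 53.6% of all genes positive. With MT against control 3 were positive and 2 negative (median 0.11), against 49.3% of all genes positive. SMR1, an inhibitor of cyclin-dependent kinases, lay below control with both treatments, on the other side from both medians. It was at 28.9 and 28.4 CPM in control, 24.1 and 20.05 CPM with IAA, and 20.9 and 21.3 CPM with MT. Its value with MT was -0.44 ± 0.11 (log2, SE; edgeR adjusted p = 0.0933). By edgeR 0 of 5 endocycle genes passed in any comparison. At an unadjusted p under 0.05, 1 was lower in each. The shares of all genes were 4.27% with IAA, 4.58% with MT and 4.53% for MT over IAA. DESeq2 called 1 lower for MT against control, against 0.748% of all genes. Of 7 genes of the DNA damage response, BRCA1 was at 5.17 and 5.37 CPM in control, 8.08 and 10.1 CPM with IAA, and 4.77 and 7.48 CPM with MT. Its log2 fold change with IAA was 0.79 ± 0.22 (SE; edgeR adjusted p = 0.223). By edgeR 0 of the 7 passed in any comparison, and DESeq2 called 0. At an unadjusted p under 0.05, 2 were higher with IAA, against 6.71% of all genes, and 1 was lower for MT over IAA, against 4.53%.

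The 8 root markers summed to 12.5 and 16.4 CPM in control, 22.6 and 26.4 CPM with IAA, and 49.8 and 28.7 CPM with MT. Over control, 8 of 8 fold changes were positive for each treatment, against 53.6% of all genes with IAA and 49.3% with MT. By edgeR 3 of 8 rose with MT against control, where 1.67% of all genes were called higher. With IAA 0 of 8 passed by edgeR, where 0.583% of all genes were called higher. At an unadjusted p under 0.05, 3 were higher with IAA, against 6.71% of all genes, and DESeq2 called 2 higher, against 1.54%. With MT, LRX1, a cell wall protein of root hairs, rose by 1.47 ± 0.29 (log2, SE; edgeR adjusted p = 0.0447). CASP1, which places the Casparian strip, rose by 1.95 ± 0.39 (log2, SE; edgeR adjusted p = 0.0479), and PRX72, a peroxidase, by 1.28 ± 0.19 (log2, SE; edgeR adjusted p = 0.012). LRX1 and CASP1 lost the call without either control library, either IAA library or MT replicate 1, with edgeR adjusted p of 0.0651 to 0.402. Both also lost it in a fit of only the 2 groups compared (edgeR adjusted p = 0.0919 and 0.074) and with the replicate number as a block (0.0763 and 0.0825). CASP1 lost it under library totals alone (edgeR adjusted p = 0.0534) and among genes with a mean of at least 5 CPM (0.0571), a filter that LRX1 did not pass. PRX72 lost it without control replicate 1 (edgeR adjusted p = 0.159) or control replicate 2 (edgeR adjusted p = 0.0519). No root marker was at 0 in any library. The root stem cell genes PLT1, PLT2 and WOX5 were at 0.172 to 0.759 CPM in control, 0.339 to 1.21 CPM with IAA, and 0.249 to 1.07 CPM with MT. The shoot apex markers summed to 34.1 and 30.0 CPM in control, 25.2 and 27.0 CPM with IAA, and 22.5 and 28.2 CPM with MT, and STM was at -0.68 ± 0.23 with IAA (log2, SE; edgeR adjusted p = 0.309). Only STM and KNAT1 of these 4 passed the filter on low counts, and 0 passed by edgeR or DESeq2. At an unadjusted p under 0.05, 1 with IAA and 2 with MT were below control, against 4.27% and 4.58% of all genes. WUS was at 0 in the control and IAA libraries and in MT replicate 2, and CLV3 was at 0 in both MT libraries. Of the 6 leaf markers 0 passed by edgeR or DESeq2 in any comparison. At an unadjusted p under 0.05, 2 were higher with IAA, against 6.71% of all genes. LHB1B1, a light-harvesting protein, was at 0.18 ± 0.07 with IAA (log2, SE; edgeR adjusted p = 0.347). The root marker sum was higher with MT than with IAA, and 7 of 8 fold changes were positive, against 48.4% of all genes. Both MT libraries lay above both IAA libraries for 1 of the 8, against 19.8% of all genes. The 33 genes had lower fitted values with MT than with IAA, and so had the 6 leaf markers, with 6 of 6 fold changes negative (median -0.07). By edgeR 0 of the 33 and 0 of the 6 passed in that comparison. With MT against control 4 of the 6 leaf fold changes were positive and 2 negative (median 0.04). Both MT libraries lay below both IAA libraries for all 6 leaf markers, against 20.4% of all genes. The part of tissue makeup in the values of the 33 genes was not tested.

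**Figure D4:**
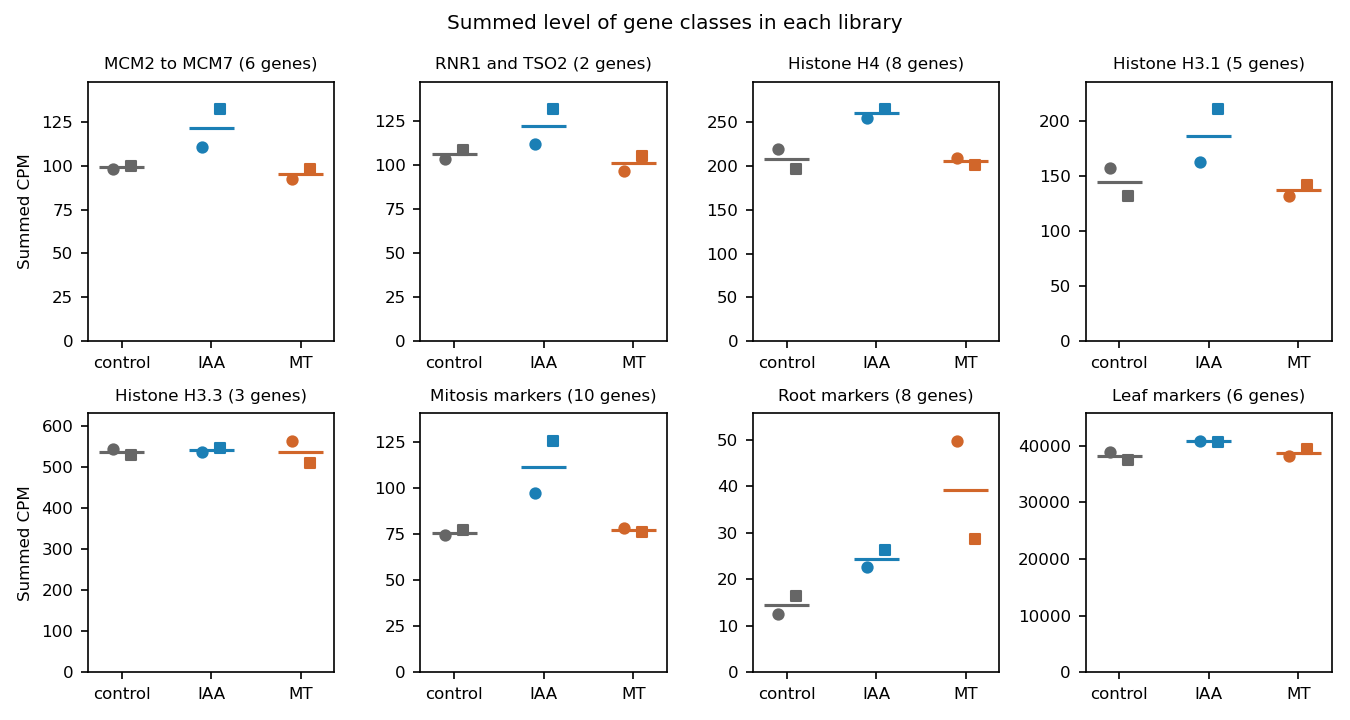
Summed CPM of 8 groups of genes in each library, with circles for replicate 1, squares for replicate 2 and a line at the mean of each pair, on linear axes that start at 0. The MCM, H4, H3.1 and mitosis sums are highest in the IAA libraries, the H3.3 sum lies between 510.1 and 564.6 CPM throughout, and the root marker sum is highest in MT replicate 1 at 49.8 CPM.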

How the data were processed

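The deposited table holds raw counts of reads for each gene as the authors made them, without scaling. Per the submitters' processing notes, the tools were HTSeq 0.6.1, TopHat2 2.0.12, Bowtie2 2.2.3 and DESeq. Genome build, annotation, library kit and strand setting are not given in the sources consulted, so TAIR10.1 served only for gene names, gene overlaps and reference sequence, by locus code. Samples were grouped by title. Genes and lists were chosen with earlier results of these data known, and the promoter stretches after their motifs were seen. The single genes followed through the alternatives, the root markers among them, were picked after their values were seen. Every gene of the set is reported. Full values go to those past the threshold or first or last in their class by level or fold change, and each list gives its genes past the threshold, up to 4, or the gene with the lowest p.

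Low counts were removed with filterByExpr, leaving 21267 genes, and libraries were scaled by TMM factors. All 6 libraries entered 1 fit by edgeR 4.0.16 (R 4.3.3, limma 3.58.1; glmQLFit and glmQLFTest), with Benjamini-Hochberg adjustment over all genes and a threshold of 0.05. An exact permutation test of 2 libraries against 2 cannot go below p = 0.333 and was not used. Levels per kb divide by coding length, and 95% intervals use the fit's SE and degrees of freedom. Replicates differed by more than sampling noise (chi-square per degree of freedom 9.16 in control, 14.5 with IAA and 18.2 with MT), and 0 pairs of libraries were identical. Each library was counted as a replicate by its title, since these values cannot tell separate cultures from separate preparations of the same culture. Alternatives were RLE factors, library totals, DESeq2 1.42.0, other filters, only the 2 groups compared, a replicate block and each library left out. Floors and intervals of counts cover counting error only.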

Additional observations from a re-analysis of the deposited data

How the results depend on the processing

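The signs were kept under RLE factors and library totals alone, with 33 of 33 genes positive for IAA over control and 33 of 33 negative for MT over IAA. DESeq2 called 475, 823 and 255 genes for IAA against control, MT against control and MT against IAA, and 2, 0 and 2 of the 33. Without a filter on low counts the tests called 268 genes for IAA against control and 13 for MT against IAA, and a fit of only the groups compared called 81 for IAA against control. An E2F word was found in 5 windows on the strand of the gene alone.

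Leaving out each library in turn gave 17 to 109 genes called for IAA against control, the lowest without control replicate 1 (17), IAA replicate 2 (21) and IAA replicate 1 (48). It gave 112 to 447 for MT against control, the lowest without control replicate 1 and MT replicate 1 (172), and 0 to 55 for MT against IAA, with 55 without MT replicate 2 and 0 without IAA replicate 1. It called 0 of the 33 throughout. The median fold change of the 33 ran from 0.18 to 0.39, from -0.10 to -0.03 and from -0.44 to -0.21, the values nearest to 0 in the first and the last comparison being those without IAA replicate 2. Counts of genes whose groups did not overlap, compared after seeing the data, ran from 25 to 32 for IAA above control (36.3% to 40.6% of all genes), 5 to 9 for MT above control (34.5% to 38.4%), 11 to 16 for MT below control (33.9% to 39%) and 30 to 32 for MT below IAA (34.2% to 38.1%). Some uncalled single values changed sign over these fits. With IAA, ORC1A ran from -0.14 (without control replicate 1) to 1.14, HTA1 from -0.067 (without control replicate 2) to 0.13, CDT1A from -0.13 to 0.39 and RNR1 from -0.0064 to 0.26, the last pair both lowest without IAA replicate 2. Against control, MT gave AT3G45930 values from -0.39 to 0.0016 (without control replicate 1) and ORC2 values from -0.27 (without MT replicate 2) to 0.73, with -0.0047 without control replicate 2. AT5G65360, at -0.0019 with MT against control, was at 0.019 under library totals alone and 0.0076 among genes with a mean of at least 5 CPM, and ran from -0.14 to 0.13 with a library left out. For MT over IAA, CDT1A ran from -0.36 to 0.16 (without IAA replicate 2), ORC2 from -0.97 to 0.027 (without MT replicate 1) and AT1G07660 from -0.25 to 0.018 (without MT replicate 2). The causes were not tested.

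Same-numbered libraries deviated from their group means with correlations of 0.06 for control and IAA, -0.20 for control and MT and 0.01 for IAA and MT. With 2 libraries a group, these values cannot settle whether libraries of different groups were paired. With the replicate number as a block, 137, 351 and 5 genes were called in the 3 comparisons, and 0 of the 33 in each. With 2 libraries a group, the 95% intervals of the least abundant genes, ORC1A and ORC2, span more than 2-fold.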
